A study of Mus musculus with 4 samples.

Results

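CpG-dense methylated windows are 1 kb stretches of the mouse autosomes that hold many CpG dinucleotides and yet were mostly methylated in wild-type embryonic stem (ES) cells. They were chosen as fixed windows on chromosomes 1 to 19 with at least 30 listed CpGs and a mean methylation level over 60% in the wild-type bisulfite library. This gave 535 windows, which is 2.83% of the 18917 windows of that CpG density and a small part of the 2162941 windows that held any listed CpG. The remaining dense windows were mostly free of methylation: 15459 of them (81.7%) were below 10% in wild type and 2923 lay between 10% and 60%. The wild-type level was therefore set by the choice, and it is given below as a description.

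The cells were E14Tg2a, an established mouse ES cell line, as the unmodified line (WT) and as a line that had received CRISPR guides against Tet1, Tet2 and Tet3 together (TetTKO). Both lines had been kept in 2i medium, which contains inhibitors of MEK and GSK3, and were then adapted to medium with 15% serum and LIF at 1000 units/ml for at least 17 days. Each genotype had 1 whole-genome bisulfite library and 1 RNA-seq library, 4 libraries in all. The labels say that viable clones were picked after puromycin selection but not how many clones the TetTKO line stands for. With 1 library per group no difference between the genotypes has a replicate check, no test was made, and clone, culture and genotype cannot be told apart.

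Vertebrate genomes are poor in CpGs because methylated cytosine tends to mutate to thymine, and the CpG-dense stretches that remain, the CpG islands, usually sit unmethylated at gene promoters. Dense stretches that are methylated are known at imprinted genes, at germline genes that are silent in other cells, inside transcribed genes and in repeats. The Tet enzymes oxidise 5-methylcytosine to 5-hydroxymethylcytosine and further products, a route to demethylation. Bisulfite sequencing reads 5-methylcytosine and 5-hydroxymethylcytosine alike, so each methylation level below is the sum of both. Per the labels' protocols, 5-hydroxymethylcytosine was not detectable in the TetTKO cells.

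For few genes did a known transcription start lie in one of these windows, and the sequences just upstream of those starts are shown because they are the promoters to which the methylation values refer. The 250 bases before each start come from RefSeq (build GRCm38.p6) and were located in the mm9 positions of the deposited files by the spacing of their CG pairs. Of 18170 RefSeq promoters whose gene is in the expression files, 11423 held at least 8 CG pairs in the 300 bases from 250 before to 50 after the start, and 6599 of them, for 5988 genes, could be placed. Among 5016 genes whose placed start lay in a dense window, 4781 had it in a window below 10% and 5 in a methylated one. Each sequence is written 5′ to 3′ on the strand of its gene, with every CG in capitals. Methylation was read at those of them that the files list: 24 of 29 for Fkbp6, 8 of 8 for Tuba3a, 11 of 11 for Ly86, 15 of 17 for Gm20110 and 17 of 25 for 4930563M20Rik.
Fkbp6: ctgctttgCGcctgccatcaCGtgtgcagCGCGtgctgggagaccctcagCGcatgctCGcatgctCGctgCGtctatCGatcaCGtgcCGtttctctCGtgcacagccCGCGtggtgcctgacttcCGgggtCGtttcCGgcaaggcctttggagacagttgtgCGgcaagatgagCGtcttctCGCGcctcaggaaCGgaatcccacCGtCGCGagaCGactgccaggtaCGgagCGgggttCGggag
Tuba3a: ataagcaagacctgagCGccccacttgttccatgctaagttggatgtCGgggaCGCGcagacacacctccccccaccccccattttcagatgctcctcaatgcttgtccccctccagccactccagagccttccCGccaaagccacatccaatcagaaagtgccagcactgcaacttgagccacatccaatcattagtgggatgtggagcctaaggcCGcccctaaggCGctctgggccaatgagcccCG
Ly86: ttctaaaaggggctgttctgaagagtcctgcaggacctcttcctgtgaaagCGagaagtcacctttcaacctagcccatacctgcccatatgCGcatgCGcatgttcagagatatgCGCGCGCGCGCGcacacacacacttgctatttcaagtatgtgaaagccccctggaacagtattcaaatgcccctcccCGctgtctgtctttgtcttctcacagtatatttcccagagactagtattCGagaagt
Gm20110: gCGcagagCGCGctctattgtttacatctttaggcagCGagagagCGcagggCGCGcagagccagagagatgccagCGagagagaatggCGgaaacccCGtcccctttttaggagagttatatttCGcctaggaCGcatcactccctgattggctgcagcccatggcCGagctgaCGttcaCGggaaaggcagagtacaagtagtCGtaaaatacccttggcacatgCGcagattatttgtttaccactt
4930563M20Rik: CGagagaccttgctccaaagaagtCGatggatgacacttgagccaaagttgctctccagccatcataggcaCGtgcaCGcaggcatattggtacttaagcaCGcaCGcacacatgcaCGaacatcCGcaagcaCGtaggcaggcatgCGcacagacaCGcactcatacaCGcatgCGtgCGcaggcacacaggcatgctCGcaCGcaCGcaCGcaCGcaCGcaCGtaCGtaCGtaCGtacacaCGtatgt

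Fkbp6 encodes an immunophilin-like protein needed for meiosis in the male germline, and Tuba3a an alpha-tubulin made mainly in testis. In the Fkbp6 sequence (mm9 chromosome 5, 135825784 to 135826033) the 24 listed CpGs averaged 56.8% in WT and 81.4% in TetTKO. Of these CpGs 17 were higher and 4 lower in TetTKO. The RNA of Fkbp6 was 3.02 FPKM (fragments scaled by transcript length and library size) in WT and 2.61 in TetTKO. In the Tuba3a sequence (chromosome 6, 125236100 to 125236349) the 8 listed CpGs averaged 66.7% in WT and 51.3% in TetTKO, with RNA at 14.1 and 21.9 FPKM. Coverage of the window was 11.6 and 9.0, on a chromosome covered more deeply in WT than the others. RNA was thus listed for both genes beside promoter CpGs that averaged 56.8% and 66.7% in WT. A second placed start of Fkbp6 (sequence 135825915 to 135826164) had 13 listed CpGs at 61.7% in WT and 87.1% in TetTKO. Which start gave the Fkbp6 RNA was not determined. Tuba3a has near-identical tubulin relatives, so the assignment of its reads is uncertain.

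The other placed promoters belonged to genes with little or no RNA. Ly86 encodes a partner of a Toll-like receptor homologue of B cells. Its 11 listed CpGs (chromosome 13, 37436964 to 37437213) averaged 90.8% in WT and 70.6% in TetTKO, with RNA at 0.06 and 0.04 FPKM. For Gm20110 (chromosome 10, 99071555 to 99071804) the 15 CpGs averaged 91.8% and 90.5%, and the gene was listed at 0 in both RNA libraries. For 4930563M20Rik (chromosome 8, 119325313 to 119325562) the 17 CpGs averaged 73.4% and 50.4%, and the gene was likewise listed at 0 in both. All of these promoters but that of Fkbp6 were thus lower in TetTKO, Gm20110 only slightly. For comparison, 82.3% of the 4781 genes whose start lay in an unmethylated dense window had at least 1 FPKM in WT, with a median of 9.09 FPKM.

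The bisulfite libraries held 131671740 (WT) and 148888474 (TetTKO) read calls over 14161393 autosomal CpGs, with a median coverage of 9 and 10 per CpG and a minimum of 5, and mean levels over these CpGs of 69.4% and 65.0%. A median of 281 and 303 calls stood behind each methylated dense window. On chromosome 6 the WT coverage was 1.34 times that of the median autosome, against 0.982 times in TetTKO. Whether the WT culture carried extra copies of chromosome 6 was not tested, and this bears on allele levels and RNA of its genes. All 7 stem cell markers examined were present in both RNA libraries. Pou5f1 was at 1178 FPKM in WT and 1092 in TetTKO, and Sox2 at 192 and 187. Nanog (116 and 71.0), Esrrb (49.3 and 26.4) and Zfp42 (698 and 513) were lower in TetTKO. Dppa5a (3211 and 3344) and Tdgf1 (573 and 679) were higher in TetTKO. Fibroblast markers were low, with Col1a1 at 0.07 and 0.19 FPKM, Dcn at 0 and 0.04, and Lum listed at 0 in both. Thy1, at 1.29 and 0.96, was the highest of 6 such markers in WT. Tet1 RNA was lower in the library labelled TetTKO (4.36 FPKM against 15.1).

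The methylated dense windows sat at 77.4% in WT (SD 9.51 over the 535 windows) and at 75.3% in TetTKO (SD 8.49). The WT median was 79.3% and the highest window 94.8%, and the TetTKO levels ran from 41.1% to 92.7%. The difference, TetTKO minus WT, averaged -2.08 percentage points (SD 8.29) with a median of -2.39. Of the windows 321 were lower in TetTKO and 214 higher. The difference ran from -36.2 to 21.1 points, with quartiles at -7.17 and 2.89. Pooled over reads, 77.7% of 165871 calls were methylated in WT (exact 95% binomial interval 77.5 to 77.9) and 75.1% of 178307 in TetTKO (74.9 to 75.3). These intervals cover counting error only and are too narrow even for that, since 1 read can contribute calls at several CpGs and may be a PCR copy of another.

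Most windows stayed methylated. Of the 535, 506 were also over 60% in TetTKO and 29 were not. Individual CpGs within a window spread by a median SD of 17.3 points in WT and 15.7 in TetTKO. Unmethylated CpGs were rare inside the windows: 1.53% of the 17462 CpGs were under 20% in WT and 1.22% in TetTKO. Fully methylated CpGs were less frequent in TetTKO, 13.6% against 21.6% in WT, where the median coverage of the windows was 9.24 and 8.61. The part of coverage in this was not tested. The windows were also the less dense end of the dense class, with a median of 32 listed CpGs and a maximum of 47, against 47 and 144 for the unmethylated dense windows.

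**Figure D1:**
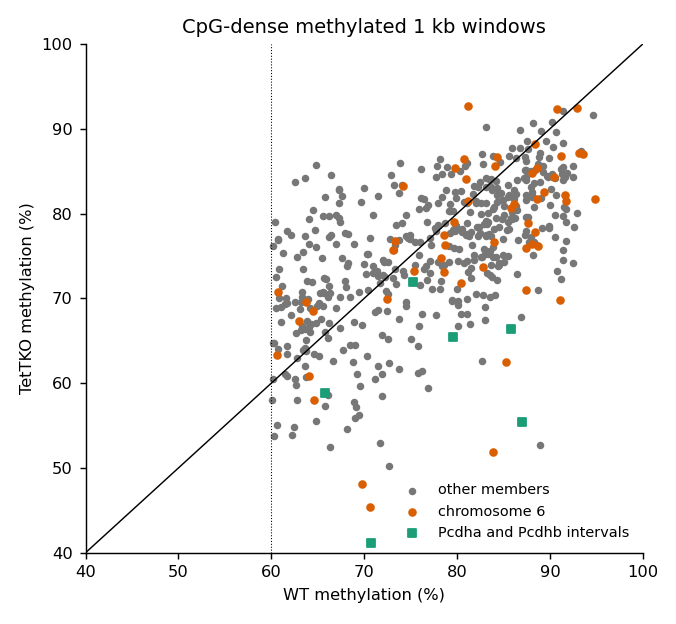
Methylation level of each of the 535 windows in WT (horizontal axis, %) and TetTKO (vertical axis, %). The diagonal marks equal levels and the dotted line the 60% used for the choice; windows on chromosome 6 and in the Pcdha and Pcdhb intervals are coloured, and those far below the diagonal include both.

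Because the windows were chosen on a high WT level, part of any difference can come from the choice. The choice was therefore repeated on the odd-numbered CpGs of each window, and the difference was measured on the even-numbered ones. It averaged -1.74 points over 535 windows (SD over chromosomes 2.20). Chosen on the TetTKO level instead, the 752 dense windows over 60% averaged 5.33 points higher in TetTKO. The sign of the mean thus depended on which library set the choice. Of those 752, 246 were over 60% only in TetTKO, with means of 48.1% in WT and 67.3% in TetTKO.

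Split by the level of the odd-numbered CpGs, the difference on the even-numbered ones went from higher to lower in TetTKO. The 139 windows at 60% to 70% averaged 5.07 points higher (SD over chromosomes 4.40), and 99 of them were higher. The 152 windows at 70% to 80% averaged -1.40 points. The 195 windows at 80% to 90% averaged -5.64 points, and 154 of them were lower. The 49 windows over 90% averaged -6.53 points, with 44 lower. Odd- and even-numbered CpGs of a window share reads, so the split does not free the measured CpGs from the choice, and this order of the classes is a description.

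Sparser methylated windows had lower differences in each class. Windows of 5 to 15 CpGs, measured the same way, averaged -3.91 points at 60% to 70% and -9.35 points over 90%, and -7.16 points in all. Windows of 16 to 29 CpGs lay between, with 2.35 points at 60% to 70% and -7.74 over 90%. The measured CpGs of the lowest class were not at like WT levels, at 64.0% in the dense windows, 67.4% in those of 16 to 29 CpGs and 72.8% in those of 5 to 15. With class and level both taken on all CpGs, the sparsest windows averaged -0.71 points at 60% to 70%, against 4.33 for the dense ones, and -14.5 against -8.61 over 90%. Over all classes, the 986276 windows of 5 to 15 CpGs over 60% had WT and TetTKO means of 80.7% and 73.2%, which differ by -7.47 points. The dense windows of 10% to 60%, at 23.4% in WT and 32.7% in TetTKO, were higher by 9.32 points, and the unmethylated ones, at 1.96% and 4.20%, by 2.24 points.

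**Figure D2:**
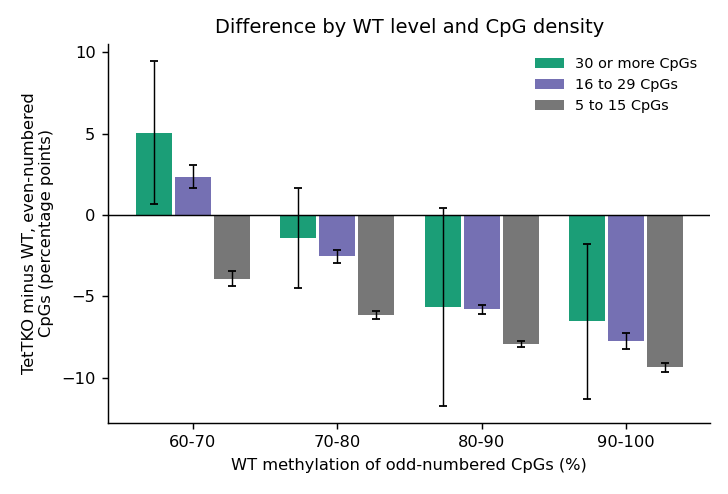
Mean difference TetTKO minus WT (percentage points) on even-numbered CpGs, by the WT level of the odd-numbered CpGs, for windows of 30 or more, 16 to 29 and 5 to 15 CpGs; error bars are the SD over chromosomes. At 60% to 70% the densest windows stand at 5.07 points and the sparsest at -3.91, and over 90% all 3 densities are below 0; the even-numbered CpGs of that lowest class had WT means of 64.0% and 72.8%.

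Differences of at least 15 points were found in 37 windows, 22 lower in TetTKO (4.11%) and 15 higher (2.80%). Among all 18917 dense windows 0.217% were lower and 4.86% higher by that much. Among the 1047616 windows of at least 5 CpGs over 60% in WT, 18.2% were lower and 0.719% higher. The choice used the WT side of this contrast, so nothing is read from these shares. No window was 30 points higher, and 3 were at least 30 points lower.

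The lowest windows relative to WT lay between genes, in the Pcdha cluster and in Mest. A window of 38 CpGs on chromosome 14 (52054000 to 52054999), 15443 bp from Vmn2r88, a vomeronasal receptor gene, was at 88.9% in WT and 52.8% in TetTKO. In it 35 of 38 CpGs were lower, and the exact intervals of the pooled reads were 85.3 to 92.9 and 46.0 to 57.5. A window of 32 CpGs on chromosome 6 (34142000 to 34142999), 14946 bp from Slc35b4, which encodes a nucleotide sugar transporter, was at 83.9% and 51.9%, with 352 and 272 read calls. Both intervals between genes were thus highly methylated in WT and intermediate in TetTKO.

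Mest is an imprinted gene expressed from the paternal allele, and its promoter region is methylated on the maternal allele. Its interval (chromosome 6, 30683506 to 30698466) held 3 of the windows, at 85.3%, 69.8% and 70.6% in WT and 62.6%, 48.1% and 45.4% in TetTKO. All 3 were lower in TetTKO, by 23.2 points on average. In the last of them, of 42 CpGs, 38 were lower and 4 higher. The 18 other windows of the region averaged 82.6% in WT and 72.7% in TetTKO, with 17 lower. Mest RNA was 6.35 FPKM in WT and 10.6 in TetTKO. The 3 windows had 341, 292 and 386 read calls in WT and 245, 329 and 380 in TetTKO, so WT was covered more deeply in the first of them. The part of this in the difference was not tested. The files do not separate the alleles.

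The Pcdha genes encode clustered protocadherins, neuronal adhesion proteins each read from its own promoter in front of shared exons. Within the interval of Pcdha1 on chromosome 18, 4 windows were at 87.0%, 70.7%, 75.3% and 85.8% in WT and at 55.4%, 41.1%, 72.0% and 66.4% in TetTKO. All 4 were lower, but the third by little. In the window at 37128000 to 37128999, 30 of 32 CpGs were lower. The window before it (37127000) was 56.7% methylated in WT, below the limit of the choice, and 15.0% in TetTKO. The other 131 windows of the region averaged 61.6% and 53.2%, with 104 lower. Further windows lay in Pcdhb15, at 65.8% and 58.9%, and in Pcdhb19, at 79.6% and 65.4%. RNA of the Pcdha genes was at most 0.03 FPKM in both libraries. Reads of these near-identical copies are uncertain.

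**Figure D3:**
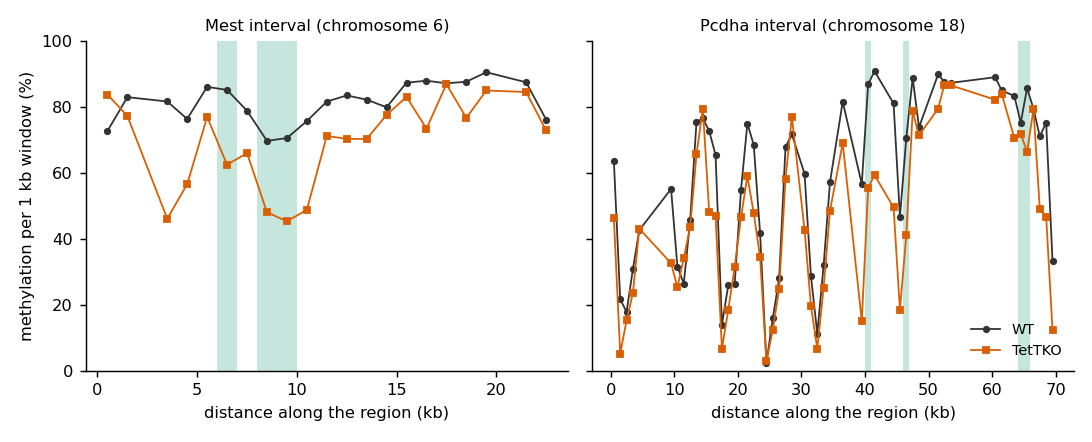
Methylation level of 1 kb windows with at least 5 CpGs along the Mest region and the part of the Pcdha interval that holds the windows, for WT and TetTKO, against distance along the region (kb). Shading marks the methylated dense windows; in Mest all 3 are lower in TetTKO, by 23.2 points on average, and in Pcdha the levels swing between nearly 0 and about 90%.

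The 5 windows highest relative to WT lay inside genes. Nin, which encodes the centrosomal protein ninein, held a window (chromosome 12, 71144000 to 71144999) at 62.6% in WT and 83.7% in TetTKO, with 27 of 33 CpGs higher. Unc5a, a netrin receptor gene, held one at 64.8% and 85.7% (chromosome 13, 55097000 to 55097999). Rusc2 had one at 63.7% and 84.2% (chromosome 4, 43429000 to 43429999), and the kinase gene Dyrk3 one at 60.4% and 79.0% (chromosome 1, 133026000 to 133026999). All 4 had a WT level within 5 points of the limit of the choice.

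Fat1, which encodes an atypical cadherin, held the longest run of adjacent windows. The 3 windows from 46108000 to 46110999 on chromosome 8 were at 65.6%, 78.1% and 66.5% in WT and 79.7%, 86.5% and 84.6% in TetTKO, and all were higher in TetTKO. A window of the gene outside the run (46125000 to 46125999) was lower, at 83.2% and 77.4%. Its RNA was 5.68 FPKM in WT and 13.7 in TetTKO. The other 15 runs were pairs, and 502 windows stood alone. The pair in Zfp532, a zinc finger gene, had WT levels of 65.8% and 80.4% and TetTKO levels of 82.0% and 82.6%. The pair in Gse1 was at 64.1% and 71.4% in WT and 79.4% and 72.7% in TetTKO. In both genes 1 window of the pair was higher by over 15 points and the other by little.

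Windows next to the limit of the choice show what it left out. Just inside were windows in Ncdn at 60.06% in WT and 58.1% in TetTKO, in Rbp3 at 60.13% and 60.5%, and in Ddx27 at 60.13% and 64.7%. Just outside were windows in 5730422E09Rik at 59.97% and 69.4%, in no gene on chromosome 5 at 59.96% and 53.7%, and in Cdc42bpb at 59.91% and 70.2%.

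The windows were not isolated islands of methylation. The median WT level was 81.2% in the window 1 kb before and 79.4% in the window 1 kb after, and 78.8% and 78.2% at 10 kb on either side. Of the neighbours with at least 5 CpGs, 4 of 486 before and 11 of 480 after were under 20%. Around the unmethylated dense windows the medians were 12.7% and 12.5% at 1 kb and 74.7% and 74.5% at 10 kb. The methylated windows thus continued the level of their surroundings, and the unmethylated ones dipped below it.

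**Figure D4:**
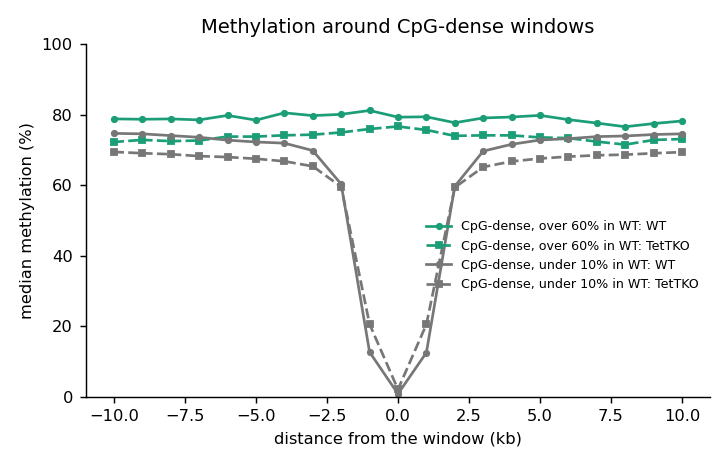
Median methylation level (%) of windows with at least 5 CpGs at distances of up to 10 kb from the methylated dense windows (over 60% in WT) and from the unmethylated dense windows (under 10%), in WT and TetTKO. The methylated windows lie level with their surroundings, and the unmethylated ones form a dip about 2 kb wide on each side.

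The windows overlapped genes less often than unmethylated dense windows did, and they rarely held an end of one. The deposited expression files give each gene an interval, and 391 of the 535 windows (73.1%, exact 95% interval 69.1 to 76.8) overlapped one. The share was 84.4% over all dense windows, 86.2% over the unmethylated ones and 47.3% over the sparse methylated ones. An end of an interval, either start or finish since the files give no strand, lay in 22 windows (4.11%), against 56.4% of the unmethylated dense windows and 1.44% of the sparse methylated ones. A further 369 windows (69.0%) lay inside a gene without an end, against 29.9% of the unmethylated dense windows and 45.8% of the sparse methylated ones. The median distance to the nearest end was 8150 bp, and 45.6% lay over 10 kb from one, against 6.53% of the unmethylated dense windows and 73.8% of the sparse methylated ones. The dense windows of 10% to 60% in WT were closer to the methylated ones in gene overlap, at 76.7%. Of them 20.5% held an end and 56.2% lay inside a gene without one, with a median distance to an end of 1251 bp. Whether a window was exonic or intronic was not determined, since no annotation of the mm9 build was used here.

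The 144 windows outside genes were at 81.2% in WT and 77.2% in TetTKO, and 100 of them were lower in TetTKO. They differed by -3.96 points on average, against -1.41 for the 369 windows inside genes and -1.12 for the 22 with an end. The windows inside genes and those with an end had lower WT means, 76.1% and 74.1%. The part of the WT level in these differences was not tested. The windows outside genes had a median distance to a gene of 26534 bp, and 49 lay over 50 kb away. Coverage over 2 times the median was found in 18 windows, 13 of them outside genes, and such coverage is known from repeats collapsed in a genome build. Those 18 averaged -5.78 points and the other windows -1.96. The highest coverage, 104 in WT and 106 in TetTKO, was at a window in Sfi1 (chromosome 11, 3050000 to 3050999), a gene for a centrosomal protein, at 83.3% and 79.1%. A pair of adjacent windows outside genes on chromosome 12 (20238000 to 20239999), at 82.9% and 88.4% in WT and 75.8% and 85.2% in TetTKO, also had a coverage of 20 or more.

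The windows were unevenly spread over the chromosomes. Chromosome 6 had 54 of them, 5.12% of its dense windows, chromosome 10 had 50 (4.91%) and chromosome 14 had 5 (0.855%). The 54 windows of chromosome 6 differed by -4.82 points (SD 8.92) and the 481 others by -1.78 (SD 8.17). Chromosome 6 also held 6 of the 22 windows at least 15 points lower, and 3 of these 6 were the windows of Mest, a single locus. It is the chromosome whose WT coverage was 1.34 times the median, and the part of that in the difference was not tested.

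RNA was compared for the 356 genes that the windows overlapped, 1.66% of the 21478 autosomal genes. Their median was 1.44 FPKM in WT and 1.68 in TetTKO, and 197 (55.3%, exact 95% interval 50.0 to 60.6) had at least 1 FPKM in WT, against 47.0% of all genes. Of the 10976 genes that overlapped an unmethylated dense window 73.7% had at least 1 FPKM, with a median of 5.85. Overlap with a window depends on length, and the median interval was 41369.5 bp for the 356 genes, 15694 for all genes and 21804 for those with an unmethylated dense window.

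Within the 356 genes the RNA level went with the unmethylated windows. The 240 genes (67.4%) that also held an unmethylated dense window had a median of 2.26 FPKM in WT, and 64.2% had at least 1 FPKM. The 116 genes that held none had a median of 0.27 FPKM, and 37.1% (28.3 to 46.5) had at least 1 FPKM. The share over all autosomal genes without an unmethylated dense window was not computed. The 37.1% therefore has no matching background, and nothing is read from it about the methylated windows. The median interval was 48451 bp for the 240 genes and 25058.5 bp for the 116, and the part of length in this was not tested. The 23 genes with an end in a methylated dense window had a median of 0.20 FPKM, and 9 of them had at least 1 FPKM. In bulk RNA, fewer cells that express a gene and less RNA per cell cannot be told apart.

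Some highly expressed genes also held such windows, but not more often than genes at large. Of the 356 genes 19.4% had at least 10 FPKM in WT, against 23.4% of all autosomal genes. Among genes with an unmethylated dense window the share was 39.5%. Of the genes named next, U2af1, Rpa1, Nop2 and Ddx27 also held an unmethylated dense window, and Acadm did not. U2af1, a splicing factor gene, reached 205 FPKM (WT) and 198 FPKM (TetTKO), with its window at 73.7% and 61.7%. Rpa1, a subunit of the single-strand DNA binding complex of replication, had 190 and 201 FPKM, with a window at 71.0% and 73.8%. Nop2, a nucleolar RNA methyltransferase gene on chromosome 6, had 166 and 126 FPKM and a window at 78.7% and 76.3%. The helicase gene Ddx27 had 94.3 and 74.3 FPKM, and Acadm, which encodes a fatty acid dehydrogenase, 84.6 and 82.6. Windows in the 69 genes of at least 10 FPKM averaged 74.7% in WT and 73.1% in TetTKO, those in the 128 genes of 1 to 10 FPKM 75.2% and 74.5%, and those in the 159 genes under 1 FPKM 77.4% and 75.6%. The choice limited these WT levels to over 60%, so they are a description.

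Between the genotypes the RNA of the overlapping genes was mostly alike. Over the 208 genes that reached 1 FPKM in WT or TetTKO the median log2 ratio, on the scale of FPKM plus 1, was 0.045, with quartiles at -0.15 and 0.26, beside -0.0085 over all 10596 such genes. This scale understates the difference of genes with low values. At least 2-fold higher in TetTKO were 5 genes (2.40%), against 1.68% of all genes tested, and 2-fold lower was 1 (0.481%), against 0.831%. Both shares rest on so few genes that they are not a result about the windows.

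The 5 higher genes were Gm8994, Hmga2, Dux, Pcdh1 and Fat1. Gm8994, on chromosome 6, reached 2.65 FPKM (WT) and 19.8 FPKM (TetTKO), with its window at 78.6% and 77.5%, with coverages of 18.2 and 12.8. Its reads may be shared with near-identical copies. Hmga2, a chromatin architectural protein gene, had 1.06 and 4.17 FPKM and a window at 61.7% and 63.4%. Dux, a homeobox factor of the early embryo that lies in a repeat array, had 0.12 and 1.76 FPKM. Its window was at 71.9% and 65.7%, with coverages of 35.5 and 42.8, and its copies cannot be told apart. Pcdh1, a protocadherin outside the clusters, had 0.61 and 2.72 FPKM and 2 windows with means of 63.9% and 73.7%. The mean methylation of the windows was thus higher in TetTKO for 3 of these genes, with 1 of the 4 Fat1 windows lower, and lower for 2. The differences of Hmga2 (1.73 points) and Gm8994 (-1.10) were small beside the SD of 8.29 over the 535 windows. The sparser window that holds the end of the Fat1 interval at 46035562, of 19 CpGs, was at 67.9% in WT and 90.3% in TetTKO.

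The gene lowest relative to WT was Tet1, a target of the guides. Its window (chromosome 10, 62275000 to 62275999) was at 63.4% in WT and 73.5% in TetTKO, while the window that holds the end of its interval at 62342762, of 31 CpGs, was at 13.02% and 51.3%. Tubb3, the neuronal beta-tubulin, came next with 61.1 and 32.4 FPKM. Lmnb2, a nuclear lamin gene, had 58.9 and 36.0 FPKM with a window at 71.5% and 62.0%. Sec11c, of the signal peptidase, and Gna14, a G protein subunit gene, followed, and none of the last 4 reached a 2-fold difference on this scale. Dnahc8, a dynein heavy chain gene, held 4 windows at means of 81.2% and 76.4%, with RNA at 4.48 and 3.00 FPKM. Their coverage was 10.1 to 14.6 in WT and 13.2 to 20.9 in TetTKO, above the medians of 8.61 and 9.24 over the methylated dense windows. Why was not tested.

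**Figure D5:**
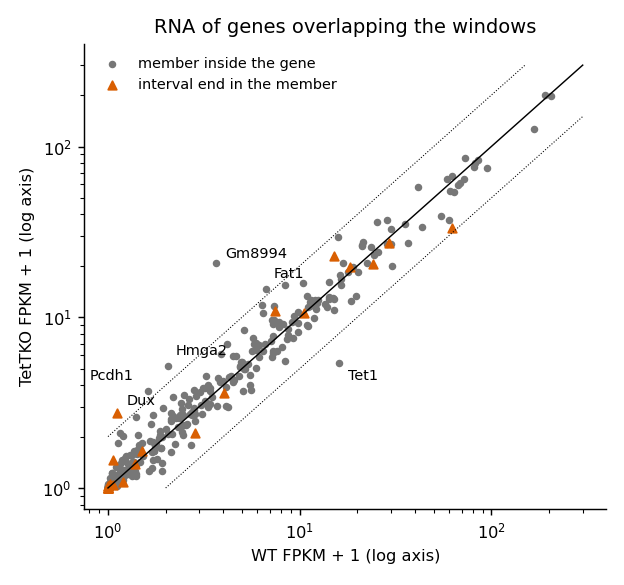
RNA level (FPKM plus 1, log axes) in WT and TetTKO of the genes that overlap a methylated dense window; triangles mark genes with an interval end in such a window, the line equal levels and the dotted lines 2-fold differences. The 5 genes named in the text lie above the upper dotted line and Tet1 alone lies below the lower one.

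RNA was also set beside the windows that differed by at least 15 points. The 22 lower windows overlapped 19 genes, of which 6 reached 1 FPKM in WT or TetTKO. Their median log2 ratio was 0.30, between -0.29 and 0.89, with 5 higher and 1 lower in TetTKO. None differed 2-fold, which says little over 6 genes at the background given above. The 15 higher windows overlapped 15 genes, of which 11 had at least 1 FPKM, with a median of 0.0082 between -0.28 and 1.14, and Fat1 alone was 2-fold higher.

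Gene groups differed in how often they held such a window, against 1.66% of all autosomal genes. Protocadherins led with 12 of 69 genes (17.4%), but those 12 shared 8 windows, which averaged 74.0% in WT and 63.3% in TetTKO. Imprinted genes had 7 of 66 (10.6%), with 8 windows at means of 75.5% and 70.03%. Of these 8 windows 5 were lower in TetTKO, and 3 were those of Mest, at means of 75.2% and 52.0%. The windows of Fkbp6, Htr2a and Peg10 were higher, so the mean of the group leans on 1 locus. Zinc finger genes had 23 of 433 (5.31%), with 26 windows at 74.9% and 75.6%. Collagens had 3 of 42, the DNA methylation machinery 2 of 26, genes with methylated germline promoters 2 of 44, solute carriers 5 of 343 and voltage-gated calcium channels 1 of 25. The lists were chosen with these data known, and gene length was not taken into account.

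Other groups held none. There was no window in 109 genes of the Hox, Pax, Lhx, Nkx, Dlx, Tbx and similar families, developmental transcription factors, and 97 of the 109 held an unmethylated dense window. None was found in 30 pluripotency genes, of which 21 held an unmethylated dense window, nor in 68 histone, 88 ribosomal protein, 56 ADAM and ADAMTS protease, 10 fibroblast and 1439 olfactory and vomeronasal receptor genes. Of the receptor genes only 2 held an unmethylated dense window. A methylated dense window was held by 1.66% of all autosomal genes, so its absence from lists of 10 to 109 genes says little.

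Imprinted genes other than Mest differed in both directions. Peg10, a retrotransposon-derived gene on chromosome 6, had a window at 4705000 to 4705999 that was at 74.2% in WT and 83.3% in TetTKO, with coverages of 9.65 and 7.63. The windows at the start of its interval, at 4697000, 4698000 and 4699000, were not methylated enough to be chosen, with 22.4%, 28.9% and 43.6% in WT and 10.9%, 19.6% and 13.5% in TetTKO. Its RNA was 7.41 and 14.4 FPKM. The noncoding gene Peg13 lies within Trappc9, and their shared window was at 84.0% and 80.7%. The amino acid transporter gene Slc38a4 had 80.8 and 78.9 FPKM and a window at 84.2% and 83.9%. Htr2a, a serotonin receptor gene, had a window at 68.9% and 76.4%. Fkbp6 stands on both the imprinted and the germline list, and its window was at 66.9% and 79.8%, with a larger difference at the promoter CpGs given above. The window of Tet3, another guide target, was at 81.2% and 81.5%, with RNA at 0.32 and 0.27 FPKM.

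Zinc finger genes had windows over most of the range, with WT means per gene from 61.4% in Zfp146 to 88.7% in Zfp74. Zfp532 had the highest RNA among the zinc finger genes after Zfp146, with 19.13 and 17.5 FPKM against 24.6 and 23.2. The Zfp146 window was at 61.4% and 69.4%, and that of Zfp74 at 88.7% and 71.0%. Zfp423, a developmental zinc finger gene, held 2 windows at means of 65.8% and 77.5%, and Zfp790 held 2 at 80.9% and 78.7%. The collagen genes Col6a1, Col6a2 and Col23a1, with at most 0.12 FPKM in WT, had windows at 90.6%, 90.3% and 89.6% in WT and 84.2%, 87.9% and 88.5% in TetTKO. Cacna1h, a T-type calcium channel gene with 0.11 and 0.14 FPKM, had one at 92.6% and 78.5%. The collagen windows and the Cacna1h window were highly methylated in WT and lower in TetTKO. So were 42 of the 45 methylated dense windows over 90% in WT and 173 of the 206 at 80% to 90%. The choice used WT, so nothing is read from this about these genes. The zinc finger windows, over a wider range of WT levels, were lower in 11 of 26.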

How the data were processed

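Methylation and RNA were measured in WT and TetTKO cells, 1 library each. Per the deposited files, the authors' methylation tables give each CpG's methylated fraction and its read counts; the submitters' processing notes name the mm9 build, Bismark 0.7.9, TopHat2 2.0.2 and Cufflinks 2.0.2. The authors' expression tables give FPKM, whose read depth is unknown. The window level was the unweighted mean of 100 times methylated over total counts (Python 3.11.15, numpy 2.4.6, pandas 2.3.3, scipy 1.17.1). Genes were tested at 1 FPKM or more in either library, with a pseudocount of 1. Exact 95% binomial intervals used summed reads for methylation levels and counts of windows or genes for shares. Those of shares treat windows and genes as independent, which adjacent windows and overlapping genes are not. The window calculation was tested on simulated data. Alternatives changed the CpG minimum, level limit, coverage, window offset, choosing library, chromosome 6 and pseudocount. The windows, gene lists and naming rules were chosen with earlier results of these data known. Named were the 5 largest differences each way, the longest runs, the genes with most windows, the most different and most expressed genes, list members, windows next to the limit and placed promoters. Rows of 1 gene symbol were summed. Chromosomes X and Y were left out.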

Additional observations from a re-analysis of the deposited data

How the results depend on the processing

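The mean difference of -2.08 points was -6.17 with coverage of at least 10 at each CpG, -6.28 for windows over 80% in WT, -3.14 with at least 20 CpGs, -1.74 with odd-numbered CpGs for the choice and even-numbered for the level, -1.33 with windows shifted by 500 bp and -1.78 without chromosome 6. It was 5.33, reversed in sign, when TetTKO set the choice. A choice on either library favours high levels in that library. The median log2 ratio of 0.045 was 0.13 over 80% and -0.43, reversed, at the coverage of at least 10. That setting left 13 windows, 15.4% of them in genes, so this median rests on very few genes. It required at least 30 CpGs of that coverage per window, so it is not a check on the same windows. The share in genes, 73.1%, was 15.4%, 62.5% and 66.4% at the coverage of at least 10, over 80% and with at least 20 CpGs, and the number of windows was 13, 251 and 16879. The share of windows at least 15 points higher ran from 0 to 22.3% and lower from 1.73% to 15.4% over 9 alternatives each. The windows exceeded the sparse methylated ones in their difference by 0.85 to 11.07 points. The causes were not tested. No paired analysis was possible because each group has 1 library. Coverage of 5 to 10 reads limits single CpGs, and the FPKM files give no depth.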
